A study of Mus musculus with 48 samples.

Results

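The kidneys of 6 mice given vancomycin at 400 mg/kg by the intraperitoneal route (ip) were compared with those of 6 mice given saline by the same route, 12 of the 48 samples in the study. The members were chosen by their titles, which name the dose and the route. All mice were female BALB/c, an inbred albino strain, and all received 7 daily doses and were killed on day 8. Each sample is a piece of kidney from 1 mouse, hybridised to 1 array. The 6 ip saline mice carry the numbers 61 to 66 and the 6 ip 400 mg/kg mice the numbers 103 to 108. Further ip groups of 6 mice received 50 or 200 mg/kg, and matching intravenous (iv) groups of 6 received saline, 50, 200 or 400 mg/kg. The saline mice received the vehicle at a similar volume. A piece of whole kidney holds cortex, medulla and vessels in shares that can vary between mice, so fewer cells of a type and less RNA per cell cannot be told apart.

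Vancomycin is a glycopeptide antibiotic that leaves the body mainly through glomerular filtration, and high exposure is known to injure the proximal tubule. The proximal tubule takes back filtered protein, phosphate, amino acids and glucose, secretes organic anions and makes glucose and vitamin D hormone, work that it powers by burning fatty acids in mitochondria. Injured tubule cells are known to lose these functions, to make keratins, KIM-1 (Havcr1) and clusterin (Clu), and to divide, while monocytes enter and fibroblasts lay down collagen. The comparison asks what the highest ip dose changed in the kidney against vehicle.

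Levels are given as log2 of the deposited intensity, so a difference of 1 is a 2-fold change, and errors after ± are standard deviations (SD) over 6 mice. The order of the values in the deposited table is shifted against its row identifiers. Genes were therefore named only in 3 stretches of the table where the shift is known, covering 10198 of 45101 rows (22.6%) and 7859 genes. In 23 of 23 windows of 500 rows, probe sets of the same gene correlated best at the shift used. The mean correlation was 0.56 to 0.78, against 0.22 to 0.44 averaged over 6 neighbouring shifts on each side. The best single neighbour of a window reached 0.4 to 0.64. In the window from row 5501 it was 0.64, against 0.69 at the shift used. These correlations share the arrays and describe the alignment only. Where a called gene had other probe sets, 845 of 937 moved the same way (90.2%). A level under 3.47, the median of the whole table, was not told apart from background, and fold changes from such a level are approximate.

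Intraperitoneal vancomycin at 400 mg/kg changed much of the kidney's measured RNA. Of 5748 genes that passed the filter on low levels, 3526 differed between the groups at an adjusted p under 0.05 (61.3%). Of these, 2086 were higher with vancomycin (36.3% of genes tested) and 1440 were lower (25.1%). A change of over 2-fold was found for 1348 genes (23.5%). The groups did not overlap for 1386 genes that were higher (24.1%) and 989 that were lower (17.2%), 2375 in all (41.3%). The standard errors (SE) and p-values given below come from a spread shared by all 8 groups. The ip 400 mg/kg mice spread more, so these p-values are approximate. The median difference over all genes tested was 0.11. The split between rises and falls moved with the scaling. Rises were 59.2% of the calls as deposited, 51.1% with each array centred on its median, 49.8% with quantile normalization and 45.9% with no filter on low levels. The list counts below are to be read against these shares. The lists were chosen with earlier results of these data known, so their counts and medians are a description. Of the 5748 genes, 217 passed the filter only through the 400 mg/kg groups (3.8%), and 193 of these were called higher, a direction that the filter fixed. Among the genes named here, these are Il1f6, Cd44, Krt20, Cenpf, Mcm3, Lif, Agt, Birc5, Casp12, Fpr2, Csf3r, Ccl5, Thy1, Socs3, Adam8, Clec4d, Fcgr4 and Ms4a7, and their differences from saline are a description with no test.

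The largest rise was that of Serpina10, an inhibitor of clotting proteases made mainly by the liver. Its level in saline kidneys was 3.21 at the lowest, 3.50 at the median and 5.27 at the highest, and 11.38, 11.68 and 11.73 with vancomycin. The groups lay far apart, and the difference was 7.89 (SE 0.61, adjusted p = 4.3e-15). Il1f6, which encodes interleukin 36 alpha, had a mean of 2.27 ± 0.02 in saline, under the background level, and 9.49 ± 0.89 with vancomycin. Cd44, a receptor for hyaluronan, was at 2.95 ± 0.05 in saline and 9.75 ± 0.80 with vancomycin. The largest fall was that of Hpd, an enzyme of tyrosine breakdown. Hpd ran from 13.33 through a median of 13.45 to 13.83 in saline kidneys and from 3.71 through 5.64 to 7.38 with vancomycin. The lowest saline value exceeded the highest treated value by far, and Hpd fell by 8.01 on the log2 scale (SE 0.58, adjusted p = 9.9e-16). Dnase1, a secreted DNA-digesting enzyme abundant in kidney, fell by 5.96 on the log2 scale, from a mean of 14.66 ± 0.16 to 8.70 ± 1.29. Among the 20 largest rises were monocyte genes (Cd14, Ly86, Ccr2, Fcgr1, Clec7a, Ms4a6b), keratins (Krt19, Krt20), fibrillar collagen chains (Col1a1, Col1a2) and Mki67. Among the 20 largest falls were organic ion transporters (Slc22a8, Slc22a22, Slc22a29), Egf, the brush border protease Mep1b, and the glucose and glycogen enzymes G6pc and Gys2.

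**Figure D1:**
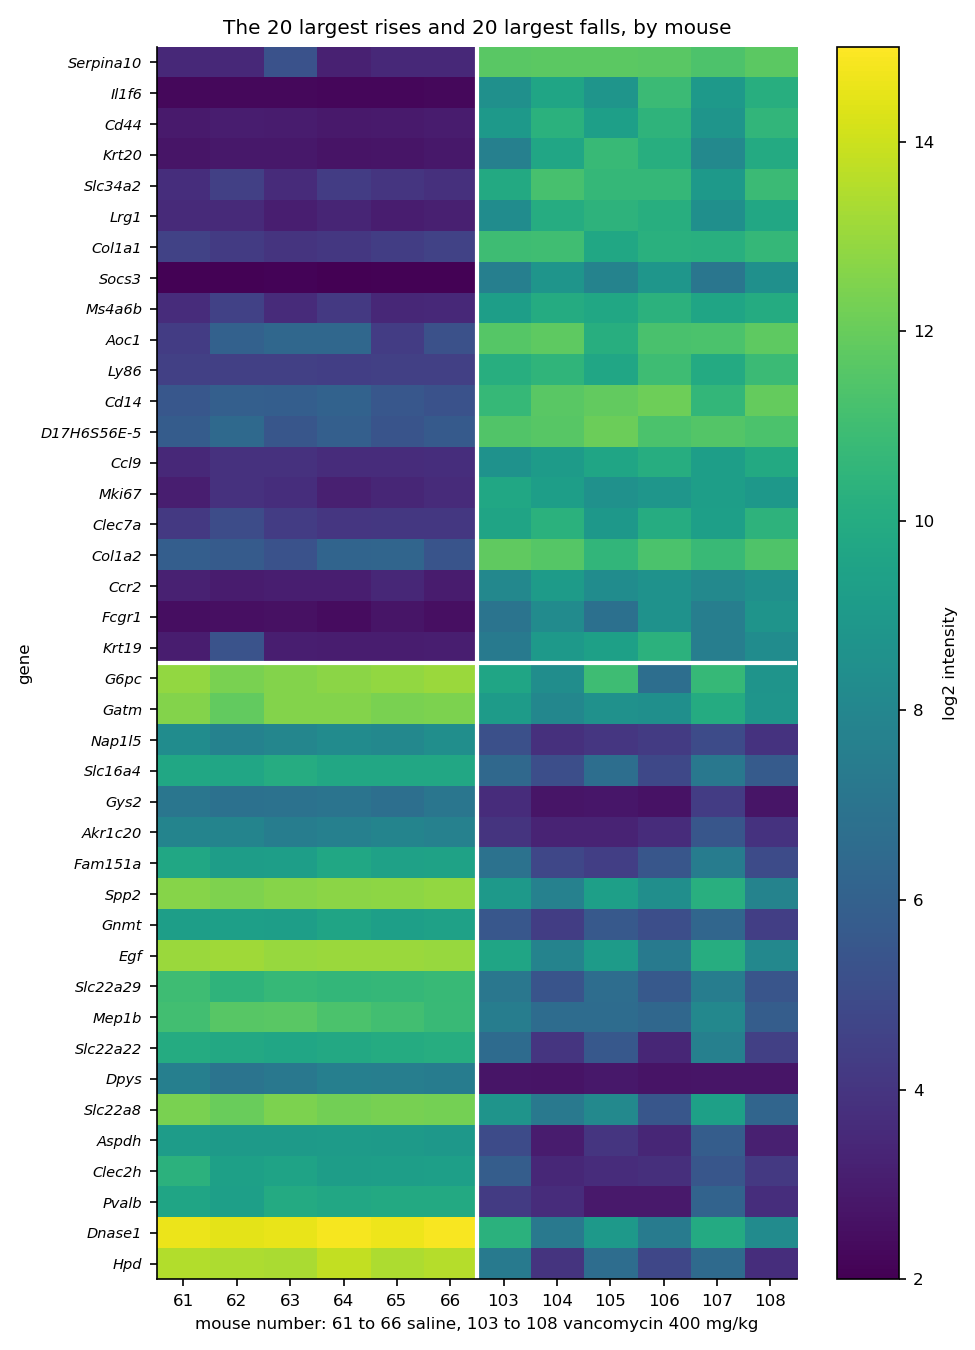
Log2 intensity (colour) of the 20 genes with the largest rises and the 20 with the largest falls whose groups did not overlap, in rows, for each of the 12 mice, in columns. All 40 rows change colour between saline mice 61 to 66 and vancomycin mice 103 to 108, and mice 103 and 107 stay closer to saline than mice 104, 106 and 108 in many of the falling rows.

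**Figure D2:**
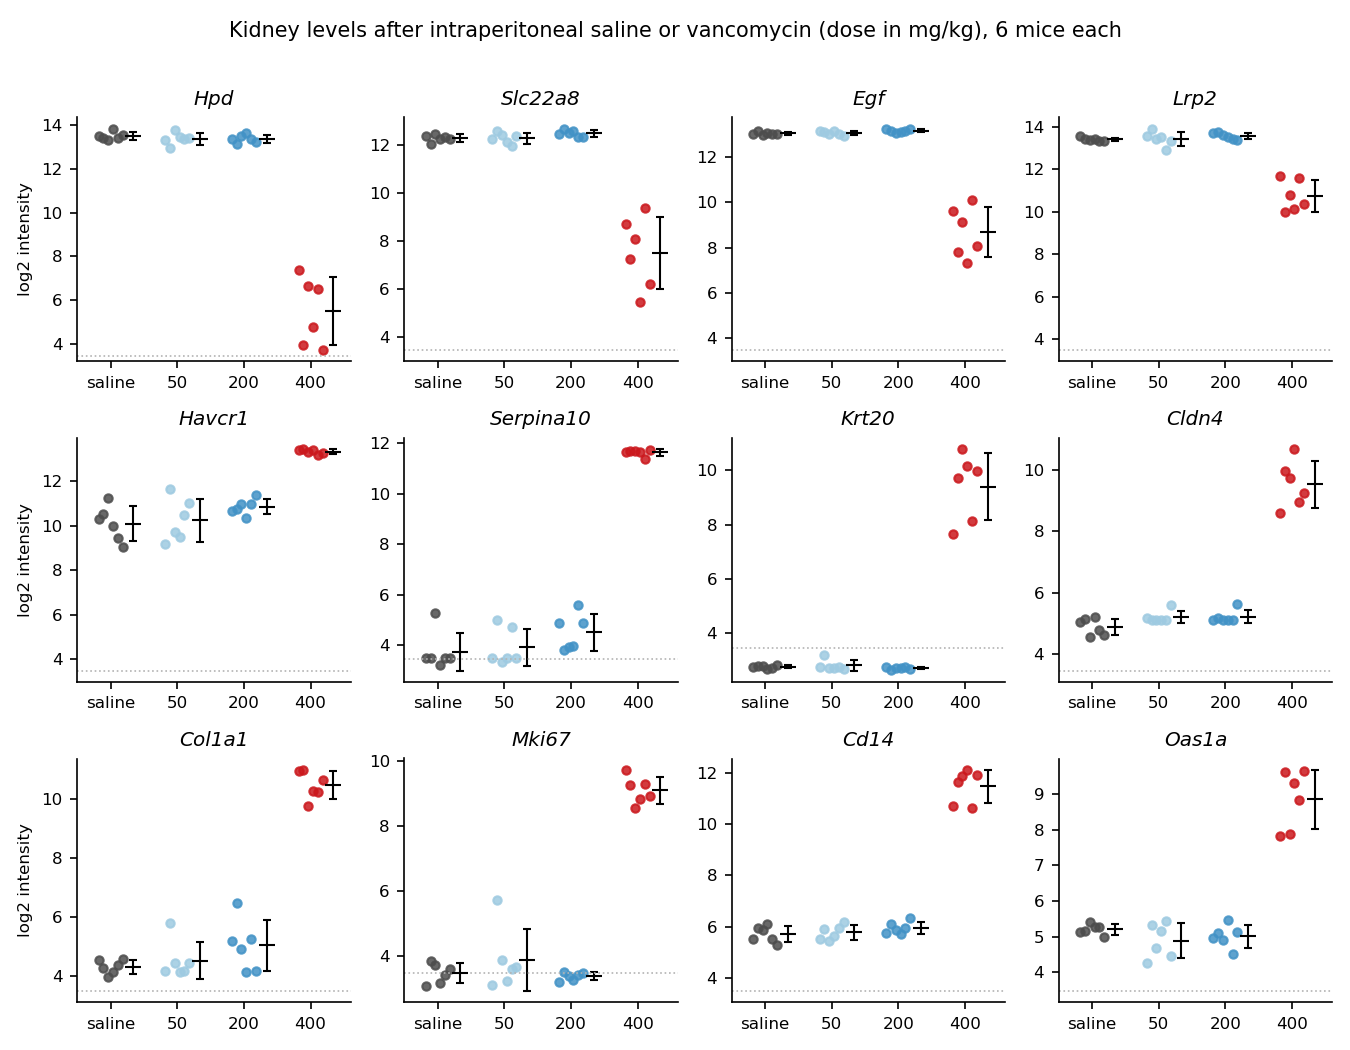
Log2 intensity of 12 genes in single mice after ip saline or vancomycin at 50, 200 or 400 mg/kg (points, 6 per group), with the mean and SD beside them in black and the table's median of 3.47 as a dotted line. For each of these genes the 400 mg/kg mice lie apart from the saline mice, and no mouse at 50 or 200 mg/kg reaches the 400 mg/kg range.

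Promoter sequences of genes from 4 lists whose promoters were searched for a motif are shown next, so that the letters can be set beside the measured changes. They are the 250 bases before and 50 bases after the annotated start, from RefSeq on GRCm38.p6, printed 5′ to 3′ on the gene's strand with motif matches in capitals. The core of the interferon response element, a pair of GAAA with a gap of any 2 bases, was searched on both strands, and its matches can overlap each other.
Oas1a, chr5:120907476-120907775, - strand: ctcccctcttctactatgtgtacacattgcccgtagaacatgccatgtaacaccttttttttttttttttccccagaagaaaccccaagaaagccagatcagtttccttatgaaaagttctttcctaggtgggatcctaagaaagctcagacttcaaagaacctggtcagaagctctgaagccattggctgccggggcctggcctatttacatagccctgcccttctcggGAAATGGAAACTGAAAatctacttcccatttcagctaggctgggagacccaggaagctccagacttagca
Cxcl10, chr5:92348840-92349139, - strand: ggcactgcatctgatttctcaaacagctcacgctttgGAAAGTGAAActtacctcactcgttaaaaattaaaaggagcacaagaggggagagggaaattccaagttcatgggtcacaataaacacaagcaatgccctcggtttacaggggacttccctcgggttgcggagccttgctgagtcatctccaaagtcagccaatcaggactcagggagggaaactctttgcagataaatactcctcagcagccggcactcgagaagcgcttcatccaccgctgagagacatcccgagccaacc
Oas1a, an interferon-induced sensor of double-stranded RNA, rose by 3.66 (SE 0.36, adjusted p = 4.3e-12), and Cxcl10, an interferon-induced chemokine, by 3.60 (SE 0.37, adjusted p = 1.8e-11). The motif was found in 14 of the 31 tested genes of the interferon list that have a promoter sequence (45.2%), against 3.8% of all tested genes and 4.0% of all genes with a promoter. Among the 14 is Rsad2, whose level did not pass the test (difference 0.03).

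For the mitosis genes the motif is TTTGAA, the cell cycle homology region, also on both strands.
Mki67, chr7:135716330-135716629, - strand: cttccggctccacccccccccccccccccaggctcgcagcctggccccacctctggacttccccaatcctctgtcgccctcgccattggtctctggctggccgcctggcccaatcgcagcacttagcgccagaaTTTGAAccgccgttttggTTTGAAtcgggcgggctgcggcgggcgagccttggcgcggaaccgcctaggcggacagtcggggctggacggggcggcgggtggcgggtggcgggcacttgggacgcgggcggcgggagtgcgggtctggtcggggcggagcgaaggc
Cenpf, chr1:189688037-189688336, - strand: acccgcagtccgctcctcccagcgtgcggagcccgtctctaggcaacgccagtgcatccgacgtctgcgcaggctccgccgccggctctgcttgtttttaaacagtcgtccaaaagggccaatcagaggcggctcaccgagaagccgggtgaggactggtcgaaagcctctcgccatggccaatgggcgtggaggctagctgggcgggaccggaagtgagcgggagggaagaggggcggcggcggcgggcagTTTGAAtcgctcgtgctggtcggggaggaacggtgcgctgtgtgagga
Mki67, a marker of dividing cells, rose by 5.64 (SE 0.40, adjusted p = 5.6e-16), and Cenpf, a kinetochore protein, had a difference of 3.74. These letters were found in 19 of 33 mitosis genes with a promoter sequence (57.6%), against 14.4% of tested genes and 20.2% of all genes. Spc25, which fell, is among the 19.

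For DNA replication the motif is TTTGGCGC, an E2F site, and for amino acid breakdown CAAAGTCCA, an HNF4 site, both searched on both strands.
Mcm3, chr1:20820263-20820562, - strand: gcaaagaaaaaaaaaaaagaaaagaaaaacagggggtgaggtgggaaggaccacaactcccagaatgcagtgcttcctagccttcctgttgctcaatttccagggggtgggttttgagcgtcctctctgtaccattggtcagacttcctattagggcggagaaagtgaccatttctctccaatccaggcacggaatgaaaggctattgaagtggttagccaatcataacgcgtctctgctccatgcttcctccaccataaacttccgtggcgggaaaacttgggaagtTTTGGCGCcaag
Aspdh, chr7:44465185-44465484, + strand: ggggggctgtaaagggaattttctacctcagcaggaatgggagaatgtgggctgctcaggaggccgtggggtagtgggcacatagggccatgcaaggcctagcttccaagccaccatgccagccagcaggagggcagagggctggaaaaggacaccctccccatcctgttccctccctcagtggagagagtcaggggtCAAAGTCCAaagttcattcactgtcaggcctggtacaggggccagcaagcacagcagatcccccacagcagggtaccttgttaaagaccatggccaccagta
Mcm3, a subunit of the replicative helicase, had a difference of 2.36 from a saline mean under the background level, and its other probe set stood at 0.87. Aspdh fell by 5.04 on the log2 scale (SE 0.37, adjusted p = 1.3e-15). The E2F letters were in 6 of 32 replication genes (18.8%) against 1.0% of tested genes, and Cdc25a, which did not pass the test (0.17), is among the 6. The HNF4 letters were in 2 of 33 amino acid genes (6.1%) against 0.5%. A match is a description of the letters and not a bound site.

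Genes of the tubule's uptake machinery fell. Lrp2 (megalin) and Cubn (cubilin) are the receptors that take up filtered protein. Lrp2 lay between 13.32 and 13.54 (median 13.39) in saline kidneys and between 9.96 and 11.70 (median 10.55) with vancomycin, a fall by 2.66 on the log2 scale (SE 0.24, adjusted p = 4.4e-13), or 6.31-fold. Cubn fell by 2.41 on the log2 scale with no overlap. Of 25 tested genes of protein endocytosis and the brush border, 17 fell and 5 rose, with a median of -0.61. Mep1b fell most, by 4.42 on the log2 scale. Myo6, a motor of the endocytic vesicle, stood at -0.25 and did not pass the test.

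Transporters of drugs and organic ions fell with them. Of 22 tested, 15 fell and 6 rose (median -1.41), and 1 member had passed the filter only through the 400 mg/kg groups. Slc22a8 (OAT3) and Slc22a6 (OAT1) bring organic anions, many drugs among them, from blood into the proximal tubule. Slc22a8 lay between 12.03 and 12.46 in saline kidneys and between 5.47 and 9.37 with vancomycin (medians 12.30 and 7.68). The groups stayed well apart, and the fall was by 4.76 on the log2 scale (SE 0.43, adjusted p = 4e-13), with its other probe set at -4.85. Slc22a6 fell by 2.91 and Slc22a12 (URAT1, which takes back urate) by 2.73 on the log2 scale. The risers included Abca1, an exporter of cholesterol to lipoproteins (1.85), and Slco3a1, an organic anion transporter (1.83).

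Phosphate transporters moved in opposite directions. Slc34a1, the main phosphate carrier of the proximal brush border, lay between 13.23 and 13.59 in saline and between 9.73 and 11.81 with vancomycin, a fall by 2.85 on the log2 scale (SE 0.31, adjusted p = 6.8e-11). Slc34a2, its relative from lung and gut, went from a range of 3.61 to 4.44 to one of 9.01 to 11.23, a rise of 6.41 (SE 0.44, adjusted p = 1.8e-16), or 85.1-fold. Neither gene's groups overlapped. Over the 34 tested solute carriers of the apical and basal membranes, 22 fell and 7 rose (median -0.98). Among the 34, 1 had passed the filter only through the 400 mg/kg groups. The falls included Slc6a20b, a carrier of imino acids (-3.22), Slc7a8, a carrier of neutral amino acids (-3.07), and Slc13a3, a carrier of dicarboxylates (-2.67).

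Metabolic enzymes of the proximal tubule formed the lists with the lowest medians. Of 38 tested genes of amino acid breakdown, 35 fell and 1 rose, with a median of -2.0. Besides Hpd and Aspdh, Dpys, an enzyme of pyrimidine breakdown, went from 7.40 ± 0.25 to 2.73 ± 0.06, under the background level in every treated mouse. Gnmt, which methylates glycine, fell by 4.15 and Gatm, the entry enzyme of creatine synthesis, by 3.58 on the log2 scale. The single rise was Arg2, mitochondrial arginase, from 8.88 ± 0.42 to 10.87 ± 0.47 without overlap. Gpt2 (-0.40) and Uroc1 (-0.27) did not pass the test. Glucose production and fructose use had 7 falls among 8 tested genes (median -1.97), among them G6pc, the last step of glucose release (-3.57), and the fructose carrier Slc2a5 (-2.81). Pck2, the mitochondrial form of a gluconeogenic enzyme, rose by 0.95.

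Energy pathways fell by smaller steps. In the citrate cycle list, 17 of 18 fell (median -1.01) and Me2, mitochondrial malic enzyme, rose by 0.51 as deposited but not with centring or quantile normalization, where no member rose. Fatty acid oxidation and peroxisome genes had 28 falls and 1 rise among 34 (median -1.02), led by Acox2 (-2.99), a peroxisomal oxidase, and Acsm1 (-2.95). Cpt1a, which admits fatty acids to mitochondria, did not pass the test (0.18). Of 43 respiratory chain genes 39 fell and 1 rose, a rise lost with centring, with a median of -0.66. Cox7a1 (-2.53) and Ndufs4 (-1.58), subunits of the chain, fell most. Glycolysis did not follow. Of 18 tested, 5 rose, 4 fell and 9 did not pass, with a median of 0.10. Of the 18, 1 had passed the filter only through the 400 mg/kg groups. Hk2, the inducible hexokinase, rose from 2.81 ± 0.87, under the background level, to 6.90 ± 1.41. Saline mouse 62 stood at 4.57, against 2.33 to 2.55 in the other saline mice. Pfkm, a phosphofructokinase, fell by 1.38 on the log2 scale.

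Detoxifying and lipid enzymes mostly fell. Of 31 tested cytochrome P450 and conjugation genes 21 fell and 5 rose (median -0.94). Akr1c20 fell by 3.82 and Hsd3b2, a steroid-converting enzyme, by 3.44 on the log2 scale, and Cyp7b1, an oxysterol hydroxylase, rose by 3.44. Of 21 glutathione and antioxidant genes 12 fell and 4 rose (median -0.55). Gsta2, a glutathione transferase, fell by 2.92 on the log2 scale, and Mt1, a metal-binding protein, rose by 1.40. Cholesterol synthesis had 7 falls and no rise among 12, with Cyp51 at -2.72. Iron and heme genes had 10 falls and 2 rises among 15, and the rise of Cp (ceruloplasmin, a copper ferroxidase) was the largest of that list at 3.83.

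Beyond the proximal tubule the change depended on the gene. Of 30 tested genes of distal salt, water and mineral transport, 21 fell and 4 rose (median -0.66). Egf, made by the distal convoluted tubule and thick limb, lay between 12.97 and 13.16 in saline kidneys and between 7.32 and 10.09 with vancomycin, a fall by 4.37 on the log2 scale (SE 0.35, adjusted p = 1.2e-14). Pvalb, a calcium buffer of the early distal tubule, fell by 5.83, Kl (klotho, a co-receptor for a phosphate hormone) by 2.89, Calb1, another calcium buffer, by 2.20 and the thiazide-sensitive carrier Slc12a3 by 1.67 on the log2 scale. Umod (uromodulin), a product of the thick limb, fell by 0.29 on the log2 scale and its groups overlapped. Aqp2, the collecting duct water channel, did not pass the test (0.21, SE 0.30). Fxyd5, a sodium pump regulator, rose by 3.07. Slc14a2, the urea carrier of the inner medulla, rose by 3.27, but its saline values ran from 2.57 to 8.92 and its treated values only from 8.92 to 10.63. How much inner medulla each piece held was not tested.

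Transcription factors of tubule identity moved both ways. Of 23 tested, 12 fell and 6 rose (median -0.31). Hnf4a, which sets the proximal tubule program, lay between 12.40 and 12.71 in saline and between 10.12 and 11.83 with vancomycin, a fall by 1.52 on the log2 scale (SE 0.17, adjusted p = 1.1e-10). Hlf fell by 2.44 and Hmx2 by 2.37 on the log2 scale. Pax8, a factor of kidney development, rose by 1.10 and Grhl2, an epithelial factor, by 1.15.

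Markers of tubular injury rose. Of 15 tested, 14 rose, none fell and Plau did not pass, with a median of 3.26. Serpina10 is on this list, which was chosen with earlier results known, so the count and median are no independent support. Havcr1 (KIM-1) lay between 9.02 and 11.25 in saline kidneys (median 10.12) and between 13.17 and 13.45 with vancomycin (median 13.36). The treated values were the tighter set, and the rise was 3.26 (SE 0.42, adjusted p = 5.5e-09). Clu (clusterin) went from 10.48 ± 0.21 to 14.04 ± 0.14, a rise of 3.56. Aoc1 (diamine oxidase) rose by 5.90, Ankrd1, a nuclear protein of stressed cells, by 5.23, Fga, a fibrinogen chain, by 4.08 and Lrg1, an acute phase glycoprotein, by 6.25.

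The cytoskeleton and junctions shifted too. Of 30 tested keratin and actin genes, 25 rose and 1 fell (median 1.56). Krt20 lay between 2.70 and 2.83 in saline kidneys, under the background level, and between 7.67 and 10.78 with vancomycin (medians 2.78 and 9.83), a difference of 6.63. It is the 1 member that had passed the filter only through the 400 mg/kg groups. Krt19 rose by 5.26 and Tmsb10, an actin-binding thymosin, by 3.64, while Krt5 and Krt23, keratins of other epithelia, did not pass the test. Among annexins, S100 proteins and galectins 10 of 13 rose and 2 fell, with S100a6 at 4.99 and Lgals3 (galectin 3) at 2.49. Of the 13, 1 had passed the filter only through the 400 mg/kg groups. Cell junction genes were mixed, with 15 rises, 6 falls and 8 not passing among 29. Cldn4, a claudin of the collecting duct, rose by 4.63 and Cldn3 by 2.98, whereas Cldn10, of the proximal tubule and thick limb, fell by 1.38 and Gjb2, a connexin, by 1.40 on the log2 scale.

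Most stress-response transcription factors rose. Of 35 tested injury factors 27 rose and 1 fell (median 1.25), and 1 member had passed the filter only through the 400 mg/kg groups. Relb, an NF-kB subunit, went from 2.55 ± 0.05, under the background level, to 6.84 ± 0.56. Myc went from 3.97 ± 0.25 to 7.69 ± 0.64 and Klf6 from 3.49 ± 0.49 to 7.09 ± 0.67. Sox9, a factor of regenerating tubules, rose by 1.27 on the probe set used (adjusted p = 0.00039), but its values overlapped and its other probe set stood at -0.35. Of 52 growth factors and receptors 26 rose and 14 fell (median 0.44), and 2 had passed the filter only through the 400 mg/kg groups, Lif among them. The highest differences were those of Inhbb, an activin subunit (4.53), Osmr, the oncostatin M receptor (4.42), Lif (3.68), Tnfrsf12a, the TWEAK receptor (3.52), and Tgfb1 (3.19). Inhbb was under the background level in every saline mouse. Besides Egf, the falls included Igfbp1 (-3.56), Vegfa (-1.55) and Bmp7 (-1.51).

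Among hormone and vitamin genes 8 of 14 rose and 2 fell. Agt, the precursor of angiotensin, lay between 2.59 and 2.63 in saline kidneys, under the background level, and between 6.04 and 7.51 with vancomycin, a difference of 4.25. It is among 2 members that had passed the filter only through the 400 mg/kg groups. Cyp27b1, which activates vitamin D, rose by 2.91 (SE 0.48, adjusted p = 1e-06), and Cyp24a1, which breaks it down, did not pass the test. Aldh1a2, which makes retinoic acid, rose by 4.69 and Ptgs2, the inducible prostaglandin synthase, by 2.29.

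Cell death, cell cycle arrest and cell division genes were described apart. Of 30 tested cell death genes 16 rose and 7 fell (median 0.45), and 3 had passed the filter only through the 400 mg/kg groups, Birc5 and Casp12 among them. Birc5 (4.67), Birc3 (3.51), both inhibitors of apoptosis, and Casp12 (3.43) had the highest differences, and Dnase1 the lowest. Birc5 is also on the mitosis list. Pycard, an inflammasome adaptor, rose by 2.31, with its other probe set at -0.36. Of 16 genes of p53 response and senescence 8 rose and 1 fell. Cdkn1a (p21), which halts the cycle, lay between 6.12 and 7.00 in saline kidneys and between 7.73 and 9.71 with vancomycin, a rise of 2.38 (SE 0.31, adjusted p = 8e-09) that its other probe set gave as well.

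Division genes rose at the same time. Of 37 tested mitosis genes 36 rose and 1, Spc25, fell (median 2.06), and of 37 replication genes 29 rose and 1, Ccnd1, fell (median 1.23). Of the mitosis genes 21 had passed the low-level filter only through the 400 mg/kg groups, and of the replication genes 8 had, so for those a difference was given by the filter. Mki67 lay between 3.08 and 3.86 in saline kidneys and between 8.56 and 9.74 with vancomycin (medians 3.50 and 9.10). Ccna2 (cyclin A2) rose from 2.48 ± 0.29, under the background level, to 7.32 ± 0.61. Rrm2, a subunit of the enzyme that makes deoxynucleotides, rose from 5.08 ± 0.40 to 9.61 ± 0.55. Ccnd1 (cyclin D1) fell by 0.65 on the log2 scale without overlap. Which cells divided was not tested.

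Monocyte and macrophage markers had the highest median of all lists. Of 37 tested, 36 rose and none fell (median 3.98), and 15 of them had passed the filter only through the 400 mg/kg groups. The median and its rank include these 15, whose direction the filter fixed. Cd14, the co-receptor for bacterial lipopolysaccharide, lay between 5.29 and 6.10 in saline kidneys and between 10.63 and 12.14 with vancomycin (medians 5.69 and 11.76), a rise of 5.78 (SE 0.41, adjusted p = 3.4e-16). Ccr2, the receptor that draws monocytes from blood, rose by 5.34 from a saline mean under the background level, with other probe sets at 3.43 and 1.5. C1qa, a complement subunit made by macrophages, rose by 4.60. Trem2 did not pass on the probe set used (-0.30), while its other probe set rose by 2.11. The summed intensity of the 37 genes ran from 2370 to 2860 in saline kidneys, 2330 to 2800 at 200 mg/kg and 17700 to 41300 at 400 mg/kg. Their share in the tubule falls was not tested.

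Markers of other leukocytes were scarcely measured. Only 2 of 6 named neutrophil genes passed the filter, Fpr2 (4.43) and Csf3r (1.27). Both passed through the 400 mg/kg groups, and Elane, Ngp, Cxcr2 and Cd177 did not pass. Of 20 named T and NK cell genes 4 were tested. Ptpn22 rose by 2.45 and Cd8a fell by 0.39 on the log2 scale. Ccl5 (4.28) and Thy1 (3.29) had passed the filter only through the 400 mg/kg groups, while Cd3d, Cd3e and Cd2 were under the filter. Of 16 named B cell genes 5 were tested and rose, Cd74 among them also a macrophage gene. Of the 5, 1 had passed the filter only through the 400 mg/kg groups. Ighm, the heavy chain of IgM, rose by 2.51 with overlap, since the treated mice ran from 4.91 to 8.19, and Cd79a, Cd79b and Ms4a1 were under the filter.

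Chemokines and their receptors rose with the monocyte markers. Of 36 tested, 29 rose and 4 fell (median 1.91), and 11 had passed the filter only through the 400 mg/kg groups. Ccl9 went from 3.70 ± 0.13 to 9.44 ± 0.54. Socs3, the feedback inhibitor of cytokine signalling, went from 2.07 ± 0.02, under the background level, to 8.11 ± 0.69. Cxcl12, which holds leukocytes in tissue, fell by 1.5 on the log2 scale and Il15 by 1.09. Complement and coagulation genes had 12 rises and 4 falls among 17, and 1 member had passed the filter only through the 400 mg/kg groups. Cfi, a complement inhibitor, rose by 3.50, and the clotting factors F5 and Proc fell by 1.66 and 1.61 on the log2 scale.

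Interferon response and antigen presentation genes rose almost without exception. Of 36 tested, 35 rose, none fell and Rsad2 did not pass, and the groups did not overlap for 34. The median was 2.14, and just 1 member had passed the filter only through the 400 mg/kg groups. Irf7, which amplifies the interferon response, lay between 3.92 and 4.19 in saline kidneys and between 7.17 and 9.13 with vancomycin, a rise of 4.22 (SE 0.29, adjusted p = 1.3e-16). Psmb8, an immunoproteasome subunit, rose by 3.49, H2-DMa, which loads peptides, by 3.25 and Cd74, the class II invariant chain, by 2.36. Macrophages make Cd74 and H2-DMa too, and the part of the macrophage markers in this list's rise was not tested.

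Matrix genes rose. Of 39 tested collagens and matrix proteins 35 rose and 3 fell (median 1.93), and 6 had passed the filter only through the 400 mg/kg groups. Col1a1, the main fibrillar collagen chain, lay between 3.95 and 4.56 in saline kidneys and between 9.75 and 10.99 with vancomycin (medians 4.31 and 10.45), a rise of 6.17 (SE 0.42, adjusted p = 2e-16), or 71.9-fold. Fn1 (fibronectin) rose by 3.98 and Spon1 by 4.00. Lama1, a laminin of the tubule's basement membrane, fell by 1.00 on the log2 scale with overlap. Hspg2 (perlecan) stood at -0.52 on the probe set used and at 1.16 on the other, so its direction is unsettled. Of 22 matrix remodelling genes 18 rose and 2 fell, and 5 had passed the filter only through the 400 mg/kg groups. Cd44 (6.79) and Adam8 (3.56) are among those 5. Of 13 myofibroblast and smooth muscle genes 11 rose and 1 fell (median 1.54), with Tagln at 3.12 and Dpt at 3.31. Of the 13 genes 2 had passed the filter only through the 400 mg/kg groups.

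Vessel and glomerulus genes were near the median of all genes. Of 16 tested endothelial genes 4 rose, 2 fell and 10 did not pass (median -0.07), although with quantile normalization 3 rose and 7 fell. Of the 16, 1 had passed the filter only through the 400 mg/kg groups. Among the markers of vessel lining, Pecam1 stood at 0.28 and Cdh5 at 0.38, neither passing. Ehd3, on this list and on that of endocytosis, fell by 1.06 on the log2 scale and passed. Ramp2, a receptor partner for adrenomedullin, rose by 0.79. Of 19 podocyte and mesangial genes 5 rose and 5 fell (median -0.01), against 5 and 7 with quantile normalization. Nphs1 (nephrin), the slit diaphragm protein, lay between 5.77 and 6.68 in saline and between 4.72 and 5.29 with vancomycin, a fall by 1.04 on the log2 scale (SE 0.17, adjusted p = 6.1e-07). Podxl, Wt1 and Dach1 did not pass. Of 30 protein folding genes 10 rose, 6 fell and 14 did not pass. Hspb1 (3.47), Asns, asparagine synthetase (3.19), and Hspb8 (2.95) rose most, and Ddit3, a factor of endoplasmic reticulum stress, stood at 0.01.

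**Figure D3:**
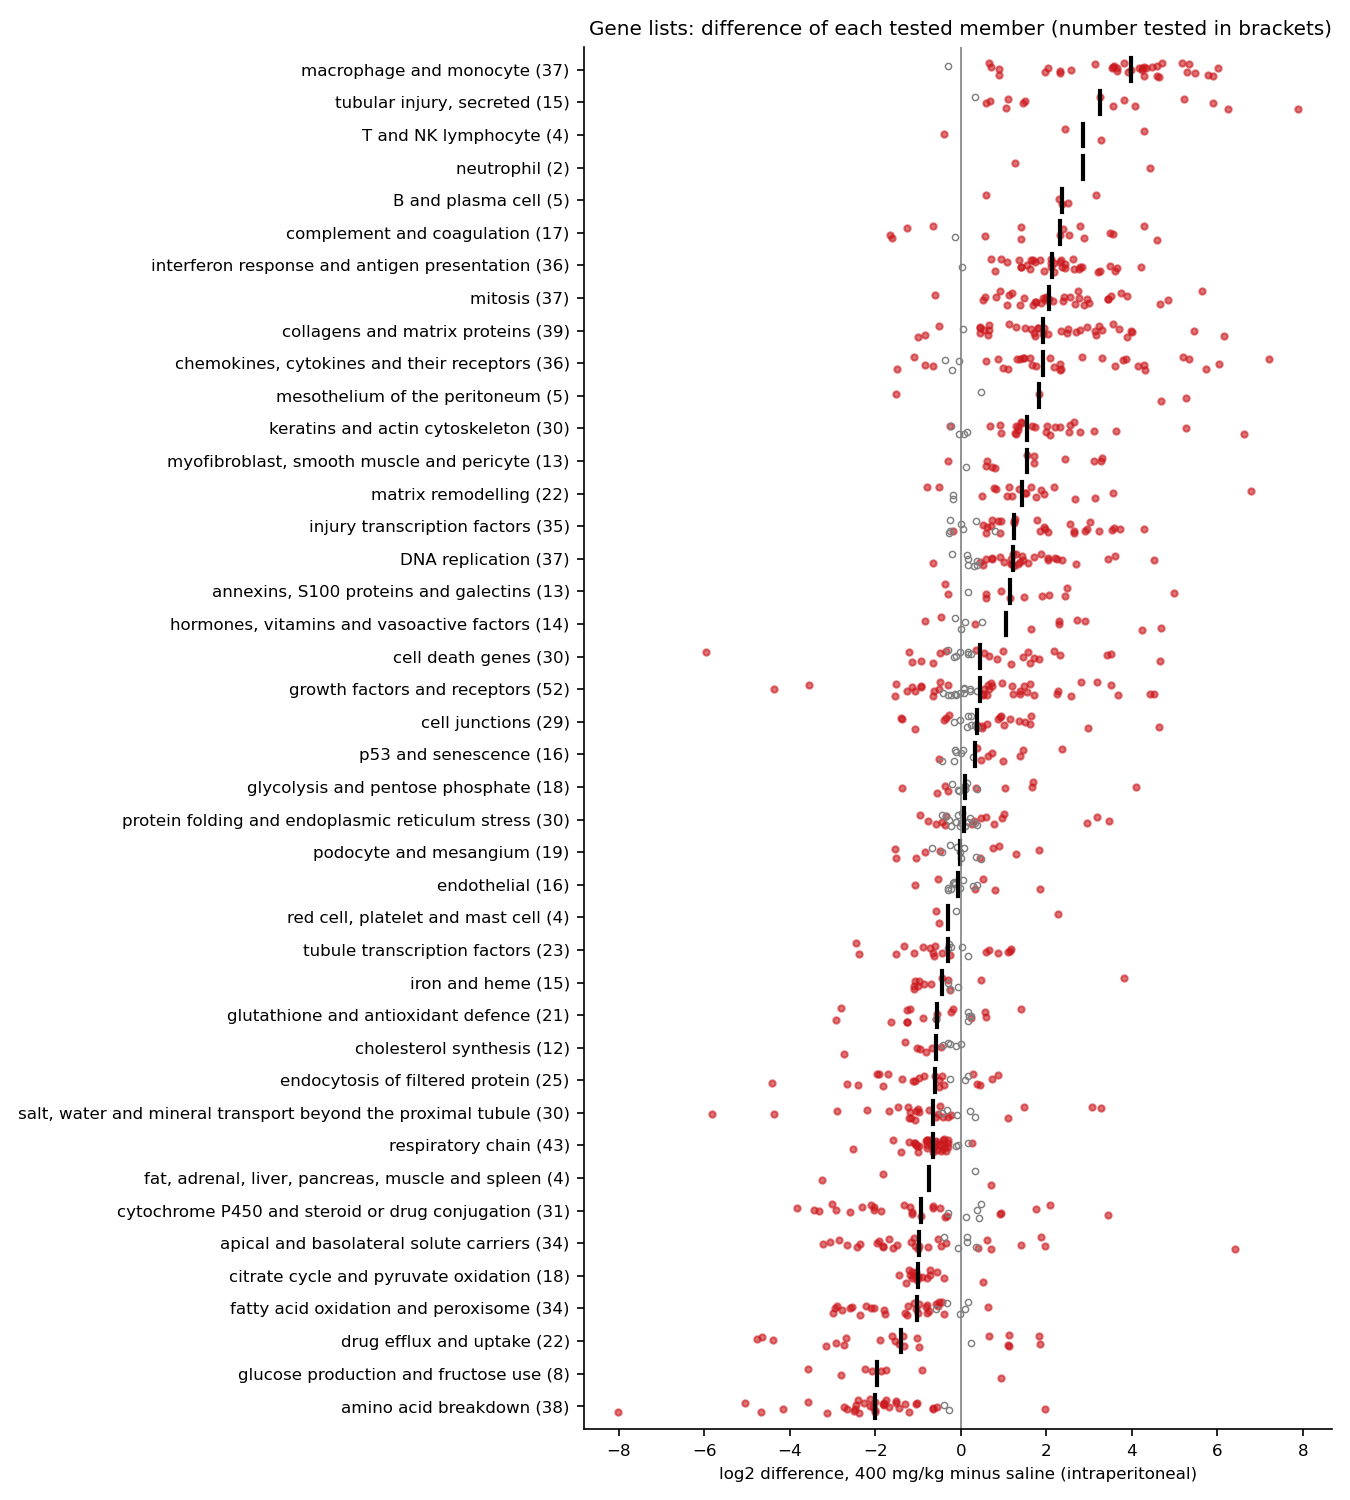
Log2 difference between ip 400 mg/kg and ip saline for each tested member (points) of the gene lists, with filled red points for members that passed the test, open grey points for those that did not, and a black bar at each list's median. The macrophage and monocyte list has the highest median (3.98) and amino acid breakdown the lowest (-2.0), while endothelial and podocyte genes scatter around 0. Members that passed the low-level filter only through the 400 mg/kg groups are drawn too, 15 of 37 in the macrophage list, and for them the filter fixed the direction.

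Markers of tissue that could have come with a piece of kidney moved in different ways. Adipoq, a marker of fat, ran from 1.95 to 9.50 in saline kidneys and from 1.91 to 11.13 with vancomycin, a spread within each group far larger than the difference of 0.34 (SE 1.56, adjusted p = 0.86). The liver products Alb and Apoa2 fell by 3.25 and 1.83 on the log2 scale. In the whole list of fat, adrenal, liver, pancreas, muscle and spleen, 4 genes were tested. There 2 fell, 1 did not pass and 1 rose, with overlap of the groups. Of the mesothelial list 5 of 9 named genes were tested and 3 rose, Aldh1a2, Krt19 and Efemp1 (1.82). Gpm6a fell by 1.51 on the log2 scale, and the defining markers Upk3b and Bnc1 were under the filter.

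About as many genes differed between 200 and 400 mg/kg by the same route as between saline and 400 mg/kg. Of the 5748 genes, 3481 differed between ip 400 and ip 200 mg/kg (60.6%), 2024 higher (35.2%) and 1457 lower (25.3%). A change of over 2-fold was found for 23.7% of the genes, and the groups did not overlap for 40.6%. Both comparisons use the same 6 mice at 400 mg/kg. Hpd had a mean of 13.36 at 200 mg/kg against 13.51 in saline, Slc22a8 12.48 against 12.29, Egf 13.17 against 13.05, Cd14 5.94 against 5.71 and Oas1a 5.01 against 5.20. Havcr1 had 10.85 ± 0.34 at 200 mg/kg against 10.08 ± 0.80 in saline, and the values overlapped. Col1a1 was at 5.02 at 200 mg/kg against 4.30, with a range of 4.13 to 6.48 over the saline range of 3.95 to 4.56. Whether 200 mg/kg differed from saline was not tested here. The tubular injury list had 14 rises and no fall against 200 mg/kg (median 2.48), the macrophage list 36 rises and no fall (3.99), and amino acid breakdown 35 falls and 1 rise (-1.98).

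The 6 treated mice did not respond to the same degree. Over the 496 genes called at over 4-fold, the mean shift away from the saline mean in log2 units was 2.65 in mouse 103, 3.41 in 104, 2.75 in 105, 3.48 in 106, 2.48 in 107 and 3.37 in 108. Every treated mouse was shifted, and these genes were chosen by the same contrast, so the shifts are a description. The median SD of these genes was 0.61 with vancomycin at 400 mg/kg, against 0.19 in saline and 0.19 at 200 mg/kg. Over all 5748 genes tested the gap was smaller, with 0.26 at 400 mg/kg, 0.17 in saline and 0.18 at 200 mg/kg. Clec4d, a lectin of activated monocytes, ran from 2.55 to 2.62 in saline. In treated mice 103 to 108 it was 4.16, 8.34, 7.54, 8.34, 2.54 and 8.07, so mouse 107 was not above saline. Fcgr4, an Fc receptor, was lowest in mice 103 and 107 as well, at 4.23 and 5.14 against 7.63 or more in the rest. Cyp4a14, a fatty acid hydroxylase, lay between 12.20 and 12.43 in saline. It was 9.62, 10.26, 7.81, 10.74 and 9.63 in treated mice 103, 104, 106, 107 and 108, while mouse 105 lay above every saline mouse. Fabp1, a fatty acid carrier, followed with 9.97 in mouse 105 and 3.17 in mouse 106, against a saline range of 7.20 to 8.41.

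The same dose given iv was compared through the difference between the ip effect and the iv effect, each against its own saline group. Of 5748 genes 248 differed by route (4.31%), 169 with a higher value (2.94%) and 79 with a lower value (1.37%) by ip, and 2.35% differed by over 2-fold. Only the 400 mg/kg and saline groups of each route enter, and route and anything else that differed between the ip and iv mice cannot be told apart. The arrays of the routes also lay on different scales. The level at the upper decile of an array was 8.29 to 8.75 in iv saline and 8.65 to 8.74 in iv 400 mg/kg mice. It was 9.14 to 9.16 in ip saline and 9.16 to 9.23 in ip 400 mg/kg mice. Small gaps in level between the routes are therefore not to be read as differences of single genes. The count rested on single mice. It was 530 without ip mouse 107, 463 without iv mouse 48, 148 without ip mouse 104, 150 without ip mouse 108, 153 without iv mouse 44 and 158 without iv mouse 45. The direction was balanced under quantile normalization, where 48.4% of the calls were higher by ip against 68.1% as deposited.

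Immediate early genes, which cells switch on within minutes of a stimulus, headed the route difference. Fos differed by 5.34 (SE 1.02, adjusted p = 0.0008). It was at 3.72 ± 0.73 in ip saline and 6.96 ± 0.95 in ip 400 mg/kg kidneys, but at 10.14 ± 0.56 in iv saline and 8.03 ± 1.88 in iv 400 mg/kg kidneys. The saline groups thus lay further apart than the treated groups. Egr1 (4.49), Nr4a1 (4.03), Rasd1 (3.58) and Csrnp1 (3.05) also had the highest mean of the 4 groups in iv saline and the lowest in ip saline. Ciart, a repressor of the clock, differed by 2.83, with 7.40 ± 0.38 in iv saline against 4.03 ± 0.64 in ip saline, and showed no ip effect (0.01). Arntl, a core clock gene, differed by -1.19. Within the ip route Ciart also stood higher at 50 and 200 mg/kg (5.89 and 5.59) than in saline or at 400 mg/kg (4.03 each). The hour of killing was not given in the sources used here.

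**Figure D4:**
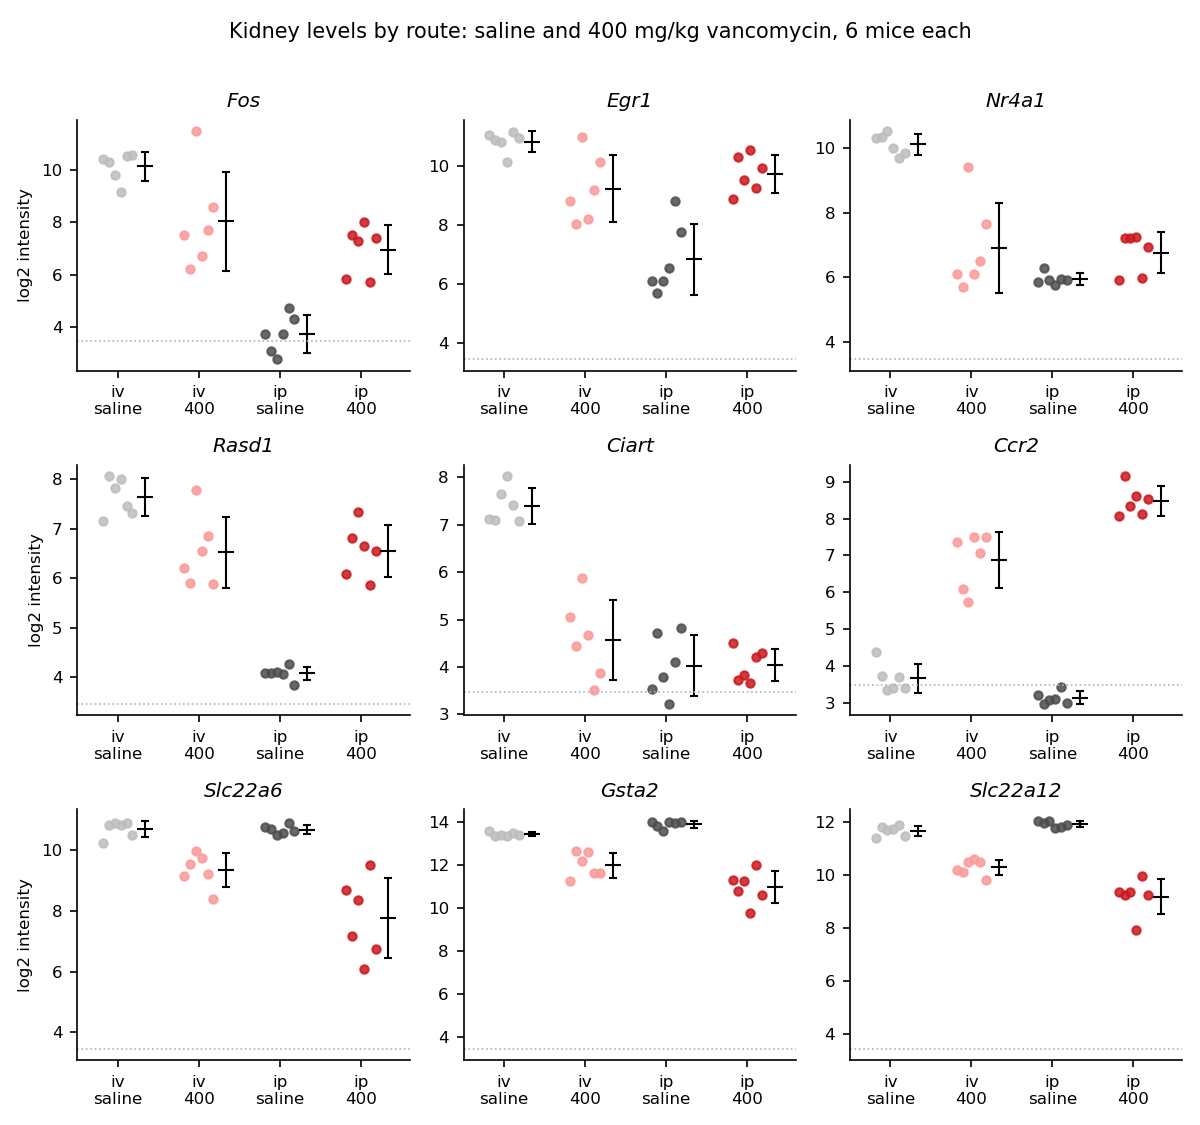
Log2 intensity of 9 genes with a route difference, in single mice (points, 6 per group) given saline or 400 mg/kg vancomycin iv or ip, with the mean and SD in black and the table's median of 3.47 as a dotted line. For Fos, Egr1, Nr4a1, Rasd1 and Ciart the iv saline mice lie above the ip saline mice, whereas for Ccr2, Slc22a6, Gsta2 and Slc22a12 the saline groups lie closer together than the treated groups.

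Other genes had a larger change by ip with saline levels closer together than in the early genes. Slc22a6 was at 10.68 ± 0.15 in ip and 10.71 ± 0.27 in iv saline, and at 7.77 ± 1.31 and 9.35 ± 0.56 with 400 mg/kg, a difference of -1.55 (SE 0.43, adjusted p = 0.03). The SE comes from a spread shared by all 8 groups, and the ip 400 mg/kg mice spread more, so this p-value is approximate. Slc22a12 differed by -1.35, and Gsta2 by -1.48. The saline groups of Gsta2 did not overlap, with means of 13.87 by ip and 13.41 by iv. This gap cannot be told apart from the difference in array scale between the routes. Ccr2 rose by 5.34 by ip and by 3.22 by iv, a difference of 2.12 (adjusted p = 0.0042), from saline means of 3.13 and 3.66. Fpr2 stood at 2.06 and Ms4a7 at 2.49 in the same difference. Both had passed the filter only through the 400 mg/kg groups, so these values are a description with no test. Of the macrophage list 10 of 37 had a higher value by ip and none a lower one, and of the injury transcription factors 12 of 35, with Fos, Egr1 and Nr4a1 among them. Over all genes tested the shares were 2.94% higher and 1.37% lower by ip. Of the 37 macrophage genes 15 had passed the filter only through the 400 mg/kg groups, and their part in the 10 was not counted. Among mitosis genes 2 of 37 and among tubular injury genes none of 15 differed by route, near the 4.31% of all genes tested. Serpina10 rose by 7.89 by ip and 7.80 by iv, a difference of 0.10 (adjusted p = 0.97). Nphs1 fell by 1.04 on the log2 scale by ip and stood at -0.08 by iv, a difference of -0.96 (adjusted p = 0.011).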

How the data were processed

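RNA from 48 kidneys was hybridised to Affymetrix arrays, 1 mouse per array. The authors deposited linear intensity values. The submitters' processing notes name GCRMA, a background correction and normalization, with version and settings not given in the sources used here. The deposited values were taken to log2. The order of values is shifted against the row identifiers, so rows 751 to 3250 took the gene of the identifier at an offset of 64 rows, rows 5001 to 11750 at -47 and rows 34251 to 36000 at -16168, and other rows stayed unnamed. Genes were kept with a log2 value above 3.47 in at least 6 arrays, and the probe set of highest mean stood for its gene. All 8 groups of 6 were fitted with limma 3.58.1 (lmFit, eBayes with trend) in R 4.3.3, with Benjamini-Hochberg adjustment over 5748 genes and a threshold of 0.05. p-values rest on the spread between single mice, and how many arrays there are bounds their precision. That spread is shared by all 8 groups and not taken from the compared groups alone. The ip 400 mg/kg mice spread more, with a median SD of 0.26 against 0.17 in saline over all genes tested. p-values of contrasts with this group are therefore approximate. With only the 2 compared groups in the fit, 3663 genes passed. The adjusted p of Havcr1 was then 4e-07 rather than 5.5e-09. In simulated data on these 5748 genes for ip 400 mg/kg against saline, 46% of changes of 0.5, 90% of 1 and 100% of 2 were recovered. Of the 177 calls 9 were false. The simulation changed 200 genes and gave each gene the same spread in all groups. In the data far more genes differed and the treated mice spread more, so these shares do not carry over directly.

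Named genes are the 20 largest rises and falls without overlap, up to 5 called members a direction and the uncalled members of each list, a fixed panel, the 10 largest of the 200 mg/kg and route comparisons a direction, and the 10 of largest spread. The members and lists were chosen with earlier results of these data known. Alternatives changed the scaling, filter, probe set rule, samples fitted, weights, prior variance and naming, and left out each mouse.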

Additional observations from a re-analysis of the deposited data

Results flagged for a closer look

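Some single mice lay far from the other 5 of their group, by a gap that passed Dixon's critical value for groups of 6. This held for 29 of 350 groups of 6 (8.3%), where chance gives about 5%. The values are log2 levels. Saline mouse 62 had the most, for Clec7a (5.03), Krt19 (5.31), Slc7a8 (8.44), Gatm (11.90), Hk2 (4.57), S100a6 (9.89), Hspg2 (5.74), Nr4a1 (6.29) and Ms4a7 (3.26). Saline mouse 61 stood apart for Proc (9.70). Saline mouse 63 stood apart for Serpina10 (5.27) and Cdc25a (5.21). Saline mouse 64 stood apart for Cxcl10 (4.99) and Gjb2 (10.05). Saline mouse 65 stood apart for Inhbb (2.81) and Dach1 (3.65). Saline mouse 66 stood apart for Sox9 (4.49), Aldh1a2 (5.33), Trem2 (4.53) and Hspb8 (3.57). At 400 mg/kg, mouse 103 stood apart for Pecam1 (7.54). At 400 mg/kg, mouse 105 stood apart for Aoc1 (10.17), Ighm (4.91) and H2-DMa (6.48). At 400 mg/kg, mouse 106 stood apart for Myo6 (9.71), Slc22a12 (7.95) and Ankrd1 (9.85). At 400 mg/kg, mouse 107 stood apart for Serpina10 (11.38) and Akr1c20 (5.46).

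The effect of 400 mg/kg differed between the routes for 26 named genes in the limma fit, as the ip effect minus the iv effect in log2 units. It was higher by ip for Fos (5.34), Egr1 (4.49), Nr4a1 (4.03), Rasd1 (3.58), Csrnp1 (3.05), Ciart (2.83), Ms4a7 (2.49), Ptgs2 (2.45), Ccr2 (2.12), Fpr2 (2.06), Klf6 (1.84), Spon1 (1.65), Cd44 (1.61), Casp12 (1.49), Relb (1.31) and Cyp7b1 (1.25). It was lower by ip for Slc22a6 (-1.55), Akr1c20 (-1.54), Gsta2 (-1.48), Slc22a12 (-1.35), Arntl (-1.19), F5 (-1.15), Nphs1 (-0.96), Slc7a8 (-0.95), Hspg2 (-0.82) and Proc (-0.76). The routes have separate saline groups, and the early genes Fos, Egr1, Nr4a1, Rasd1 and Csrnp1 had the higher means in iv saline. Ms4a7, Fpr2, Cd44 and Casp12 had passed the filter only through the 400 mg/kg groups, so their route values are a description with no test.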

How the results depend on the processing

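The number of genes that differed between ip 400 mg/kg and saline, 3526, was within 1.5 times under each scaling, filter, weighting and choice of samples run, and 3293 to 3530 with a mouse left out. Fewer genes tested gave 1058, 1916 and 701 calls in stretches 1, 2 and 3 alone, and all probe sets without names gave 14250 of 24930. The median difference over the tested genes was 0.11 as deposited, 0.01 with centring and -0.01 with quantile normalization. Against 200 mg/kg the count was 3289 to 3493 with a mouse left out. The route count of 248 became 643 with array weights and 148 to 530 with a mouse left out, and the cause was not tested. Of 154 named genes that passed and were rerun, 150 kept call and direction under every setting run for them. Reversed values were -0.35 for Sox9 in stretch 3 alone and, with the mean of a gene's probe sets, 0.90 for Trem2 and 0.32 for Hspg2, where probe sets of the gene disagree. No paired analysis was possible because each mouse has its own number and none is shared between groups. Levels under 3.47 limit what can be sized.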
